A study of Homo sapiens with 6 samples.

Results

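The Krueppel-like factors (KLFs) are transcription factors whose C-terminal zinc fingers bind GC-rich and CACC-type sequences in promoters. KLF2, KLF4, KLF5, KLF6 and KLF7 are known mainly as activators, while KLF9, KLF10, KLF11, KLF13 and KLF16 carry a short region that binds the corepressor SIN3A. In endothelial cells KLF2 and KLF4 are both switched on by the kinase ERK5 (MAPK7) through MEF2 factors and restrain growth and inflammation; KLF4 is also one of the factors used to reprogram somatic cells, and KLF5 has been linked to the growth of basal-type breast cancer. The 10 genes named here were taken from a list of symbols that was chosen with earlier results of these data known. They are 10 of the 17 KLF genes and of the 21619 genes in the count files, and all 10 were among the 13548 genes that passed the filter on low counts.

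Read counts came from the breast cancer line MDA-MB-231, which is of human origin and triple-negative. Cells treated for 6 h received CXCL12, a chemokine, together with IGF1, an insulin-like growth factor, at a higher dose (300 ng/mL with 100 ng/mL) or a lower dose (30 ng/mL with 10 ng/mL), and were set against untreated cells. All groups, untreated included, carried EGFP-tagged ribosomal protein L10a, had been held in 0.2% serum for 24 h, and were represented by 2 libraries, lettered a and b and labelled biological replicates. Messenger RNA was recovered with an antibody to GFP from tagged ribosomes (translating ribosome affinity purification), so a level here is a share of the ribosome-bound pool. Abundance, ribosome loading and recovery cannot be told apart in that share, nor can the effects of CXCL12 and IGF1, which were always given together. In bulk libraries, fewer cells with a transcript and less of the transcript per cell cannot be told apart either.

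The libraries held 26255079 to 30280322 reads on genes, and 3 reads, the limit that a count of 0 allows, corresponded to 0.0989 to 0.114 CPM, the counts put on a common scale by library size (such limits cover counting error alone). Replicate libraries were close, with an estimated biological coefficient of variation of 1.79%, so small changes passed the test and large parts of the transcriptome were called. The 6 markers of the line were present in every library and summed to 5157 and 5187 CPM at the higher dose, 5764 and 5811 CPM at the lower dose and 6606 and 6802 CPM in untreated cells; all 6 fell at the higher dose. Of the luminal markers, ESR1, PGR and FOXA1 did not exceed 0.177 CPM and CDH1 reached 0.450 CPM, while ERBB2 and GATA3 were detected. Of the markers of other cell types, CD3E and CDH5 had 0 reads and PTPRC, VWF and ALB did not exceed 0.532 CPM; CD68 stood at 250 to 280 CPM and PECAM1 at 1.13 to 1.94 CPM. The part of these markers in the KLF results was not tested.

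Per kilobase of transcript, KLF16 and KLF6 were the most abundant KLF mRNAs in the pull-down. KLF16 had 28.3 ± 1.43 RPKM (CPM divided by the transcript length in kilobases) at the higher dose, 24.3 ± 0.13 RPKM at the lower dose and 24.8 ± 0.46 RPKM in untreated cells (SD, n = 2 per group here and below). KLF6 had 23.6 ± 0.58 RPKM at the higher dose, 26.0 ± 0.59 RPKM at the lower dose and 26.6 ± 0.82 RPKM in untreated cells. The means over all 6 libraries, 25.8 and 25.4 RPKM, differed by less than the shifts between doses, and stood above 75.4% and 75.2% of the genes tested. KLF2 followed at 13.0 RPKM, KLF4 at 10.8 RPKM and KLF10 at 8.44 RPKM. KLF5 (5.34 RPKM), KLF11 (4.97 RPKM) and KLF13 (4.89 RPKM) formed a close group in which KLF13 was lowest at the higher dose (4.03 ± 0.12 RPKM) and second to KLF5 in untreated cells (5.47 ± 0.08 RPKM, against 5.65 ± 0.05 RPKM for KLF5). KLF9 (1.42 RPKM) and KLF7 (0.232 RPKM, 44 to 64 reads per library) were the scarcest. Summed over the 10 genes without division by length, KLF reads made up 356 ± 8.10 CPM at the higher dose, 358 ± 2.48 CPM at the lower dose and 371 ± 4.98 CPM in untreated cells. KLF6 gave 30.8% to 34.1% of that sum, a share of reads in which longer transcripts weigh more. The summed pool therefore moved little beside the changes of single members.

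**Figure D1:**
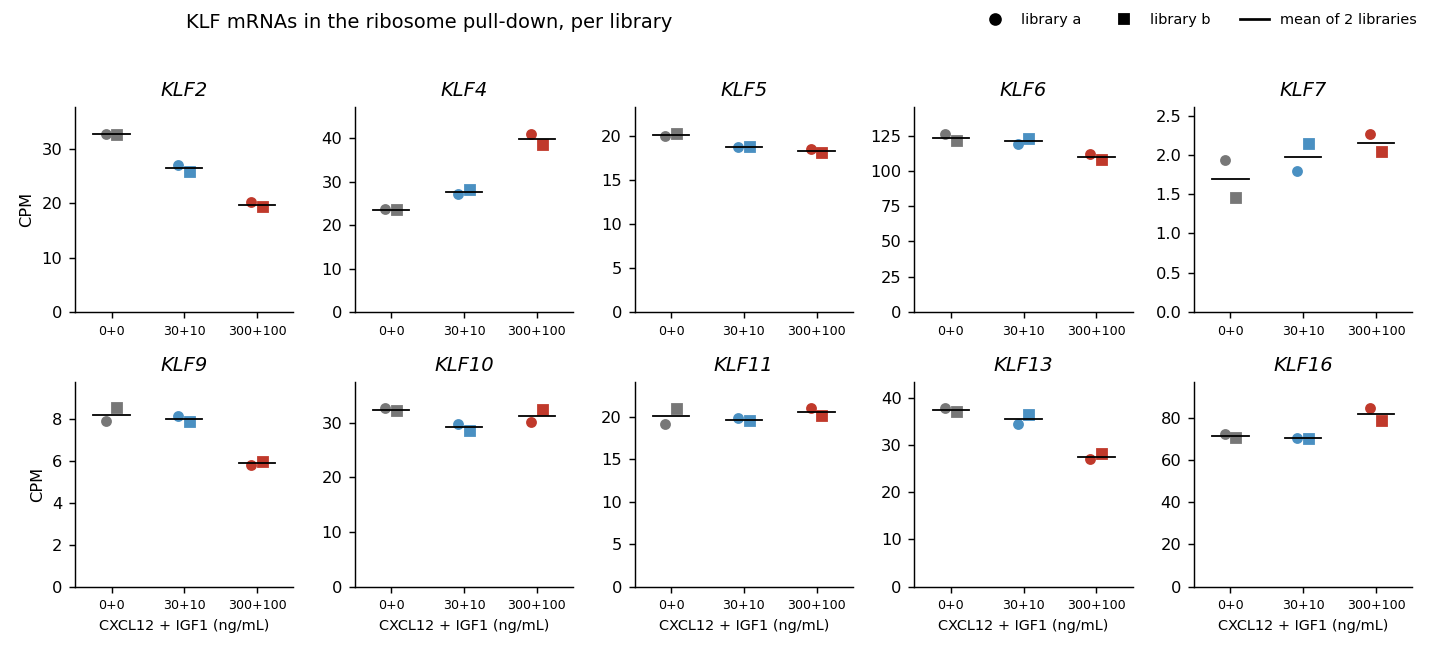
Level of each KLF mRNA in the 6 libraries, in CPM on an axis from 0, against the dose of CXCL12 and IGF1 in ng/mL (circle, library a; square, library b; line, mean of the 2 libraries). KLF2 steps down to 20.2 and 19.3 CPM and KLF4 steps up to 41.1 and 38.4 CPM at the higher dose, while KLF9 and KLF13 lie lower at that dose than in the other groups.

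At the higher dose 2 KLF mRNAs rose, 4 fell and 4 did not pass the test. The risers were KLF4 and KLF16, and KLF2, KLF6, KLF9 and KLF13 fell. With 56.3% of all tested genes called in that comparison (28.1% up and 28.2% down), 6 of 10 is near the background. Changes of at least 1.5-fold were rarer, at 6.90% of all genes, and 2 of the 10 members, KLF2 and KLF4, had one. The opposite changes of KLF2 and KLF4 were among the reasons for describing these genes. The share of members is therefore not a test against that of all genes. At the lower dose KLF4 rose and KLF2 and KLF10 fell, 3 of 10 where 32.6% of all genes were called (16.7% up, 15.9% down), and none of the 3 reached 1.5-fold, as 0.760% of all genes did. The libraries of the groups did not overlap for 8 members at the higher dose and 6 at the lower dose, against 76.3% and 64.4% of all genes. The median log2 fold change of the 10 members was -0.10 at the higher dose and -0.04 at the lower dose, where the medians of all genes were -0.00083 and -0.0021. The untreated libraries were shared by both comparisons.

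**Figure D2:**
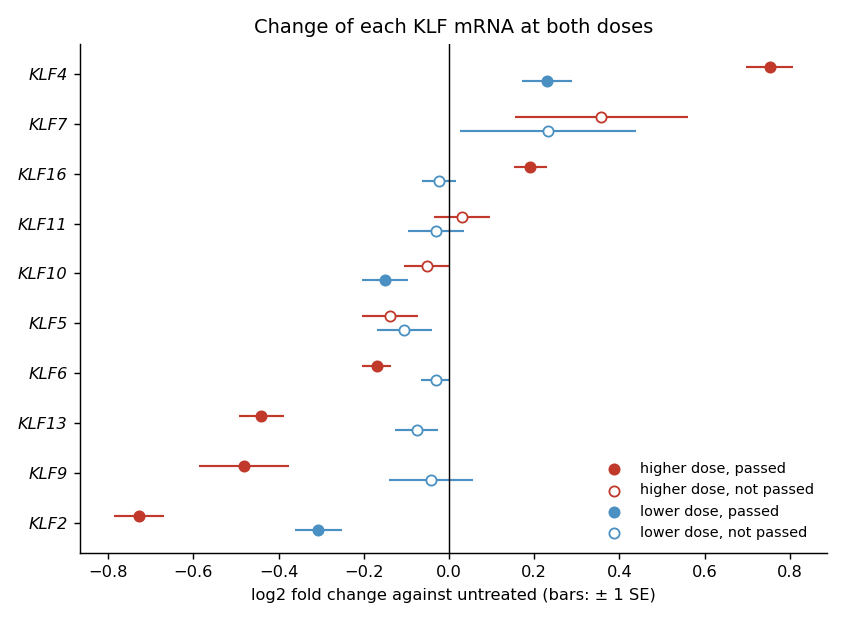
Log2 fold change of each KLF mRNA against untreated cells at the higher dose (red) and the lower dose (blue), with bars of 1 standard error; filled points passed an adjusted p of 0.05. KLF4 at 0.75 and KLF2 at -0.73 stand at opposite ends at the higher dose, and most members lie near 0 at the lower dose.

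KLF2, which keeps endothelial cells and T lymphocytes quiescent, had 32.7 and 32.6 CPM in the untreated libraries, 27.0 and 25.8 CPM at the lower dose and 20.2 and 19.3 CPM at the higher dose. Every library of a dose lay below every library of the dose under it, so the 3 groups did not overlap. At the higher dose KLF2 fell by 39.6% (log2 fold change -0.73 ± 0.06 SE, edgeR adjusted p = 6.77e-16), and at the lower dose it fell by 19.1% (-0.31 ± 0.06, adjusted p = 1.22e-05). The higher dose also lay below the lower dose (-0.42 ± 0.06, adjusted p = 1.39e-07). Of all genes tested, 2.65% had a lower fold change than KLF2 at the higher dose and 6.15% at the lower dose.

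KLF4, which drives epithelial differentiation and has been described both as a suppressor and as a promoter of breast cancer growth, went the other way. It had 23.8 and 23.4 CPM in the untreated libraries, 27.1 and 28.2 CPM at the lower dose and 41.1 and 38.4 CPM at the higher dose. Again no library of one dose reached into the range of another. KLF4 rose 1.69-fold at the higher dose (0.75 ± 0.06, edgeR adjusted p = 1.7e-17) and by 17.2% at the lower dose (0.23 ± 0.06, adjusted p = 0.00163), and the higher dose exceeded the lower dose (0.52 ± 0.05, adjusted p = 1.09e-11). At the higher dose 98.4% of all genes had a lower fold change than KLF4, and at the lower dose 88.9%.

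Because the changes were opposite, the order of KLF2 and KLF4 was not the same at all doses. Their ratio per kilobase of transcript, KLF4 over KLF2, was 0.521 and 0.516 in the untreated libraries, 0.720 and 0.784 at the lower dose and 1.46 and 1.43 at the higher dose. KLF2 was thus the more abundant of the pair in untreated cells, and KLF4 was the more abundant at the higher dose. At the lower dose the order rested on the lengths used, since without division by length the ratios there were 1.004 and 1.092, slightly in favour of KLF4. On the log2 scale the ratio averaged 0.53 ± 0.02 at the higher dose, -0.41 ± 0.09 at the lower dose and -0.95 ± 0.01 in untreated cells, so that it was 2.79 times the untreated ratio at the higher dose and 1.45 times at the lower dose. The opposite directions were among the reasons for which these genes were described, so the ratio is given without a test. Transcript lengths were those of the longest annotated RefSeq-linked transcript, and another length would shift all 6 log2 ratios by the same amount.

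**Figure D3:**
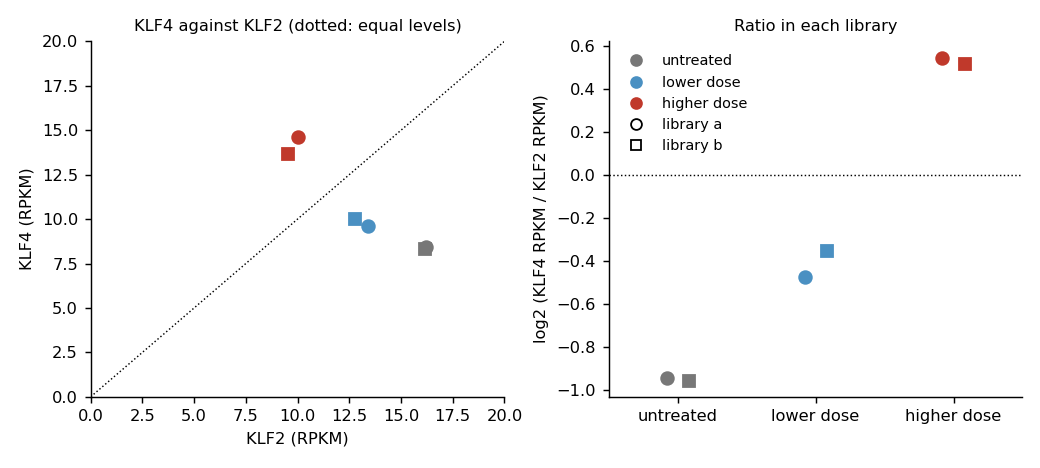
Left, KLF4 against KLF2 in RPKM in each library (dotted line, equal levels); right, the log2 ratio of KLF4 to KLF2 in RPKM by group (circle, library a; square, library b). The higher dose libraries lie above the line of equal levels, at ratios of 1.46 and 1.43, and the other 4 libraries lie below it.

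The sequences upstream of these genes are shown because the pair moved in opposite directions and because a MEF2 site in the KLF2 promoter is the known route from ERK5. RefSeq windows of 250 bases before the gene start (GRCh38.p14) were taken for KLF2 at chr19:16324576-16324825 on the plus strand and for KLF4 at chr9:107489770-107490019 on the minus strand. Capitals mark matches to the MEF2 motif, to the E-box CACGTG or to TATAA, on either strand and with overlapping matches run together.
KLF2: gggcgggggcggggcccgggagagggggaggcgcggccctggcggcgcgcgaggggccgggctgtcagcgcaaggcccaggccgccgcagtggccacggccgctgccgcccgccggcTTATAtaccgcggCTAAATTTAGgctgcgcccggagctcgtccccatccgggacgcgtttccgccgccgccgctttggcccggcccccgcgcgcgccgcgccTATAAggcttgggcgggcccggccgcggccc
KLF4: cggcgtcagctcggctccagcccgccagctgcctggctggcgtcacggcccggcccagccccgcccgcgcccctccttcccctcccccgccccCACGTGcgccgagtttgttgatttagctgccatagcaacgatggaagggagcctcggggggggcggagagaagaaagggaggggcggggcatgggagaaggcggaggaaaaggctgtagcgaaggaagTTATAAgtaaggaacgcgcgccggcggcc
The KLF2 window held 1 match to the MEF2 motif in the form CTA, then 4 bases that are each A or T, then TAG. The match began 120 bases before the start. Of 35116 RefSeq promoter windows of this length, 0.515% held this form, and none of the windows of the other members did. Looser forms of the motif were not searched. The KLF4 window held 1 E-box, 157 bases before the start, as did 6.34% of all windows, and the KLF2 window held none. Windows of KLF6, KLF7 and KLF11 also held an E-box, for KLF7 and KLF11 not in every record. TATAA was matched 2 times in each window, at 31 and 133 bases before the start of KLF2 and, as a pair of overlapping matches on opposite strands, at 28 and 29 bases before the start of KLF4, in a set where 18.9% of windows had one. GC boxes (GGGCGG), a type of site that KLF and SP proteins themselves bind, were matched 4 times in each window, and 42.6% of all windows had at least 1. Neither window matched CACCC (54.7% of windows), the FOXO-type sequence GTAAACA (2.98%) or the cAMP-response sequence TGACGTCA (1.65%). RefSeq records were found for 9 of the 10 members, all but KLF10. A match describes these letters only; binding was not measured.

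Among the other activator-type members, KLF6 changed and KLF5 and KLF7 did not pass the test. KLF6, an early-response factor described as a tumour suppressor, had 126 and 121 CPM in the untreated libraries, 119 and 123 CPM at the lower dose and 112 and 108 CPM at the higher dose. The higher dose libraries were the lowest of the 6, and the other groups overlapped. KLF6 fell by 11.1% at the higher dose (-0.17 ± 0.03, edgeR adjusted p = 2.67e-05) and was -0.03 ± 0.03 at the lower dose (adjusted p = 0.517); higher against lower dose it fell by 0.14 ± 0.03 on the log2 scale (adjusted p = 0.000997). A correction for transcript length and GC content took the change at the higher dose to -0.10 (adjusted p = 0.0073) and that between the doses to -0.09 (adjusted p = 0.0225). KLF5 had 20.01 and 20.28 CPM in the untreated libraries, 18.73 and 18.74 CPM at the lower dose and 18.55 and 18.04 CPM at the higher dose. Its treated libraries lay below both untreated libraries, but the change at the higher dose, -0.14 ± 0.07 (adjusted p = 0.0679, 95% interval -0.27 to -0.01), missed the threshold that it passed with upper quartile scaling (-0.16, adjusted p = 0.0311). KLF7, which supports axon growth in neurons, had 1.940 and 1.451 CPM in the untreated libraries, 1.801 and 2.144 CPM at the lower dose and 2.270 and 2.036 CPM at the higher dose. Its fold change of 0.36 ± 0.20 at the higher dose (adjusted p = 0.131) had an interval of -0.04 to 0.76, which reaches the value of KLF4; with the length and GC correction it was 0.47 (adjusted p = 0.0399).

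Of the SIN3A-binding members, KLF9 and KLF13 fell and KLF16 rose, all at the higher dose and none of them at the lower dose. KLF10, also of this group, was called down at the lower dose, as given below with its limits. KLF9, a factor induced by glucocorticoid and thyroid hormone, had 7.91 and 8.51 CPM in the untreated libraries, 8.14 and 7.85 CPM at the lower dose and 5.82 and 5.97 CPM at the higher dose. Untreated and lower dose libraries overlapped, and the higher dose libraries lay apart below them. KLF9 fell by 28.4% at the higher dose (-0.48 ± 0.11, edgeR adjusted p = 0.000108), and by 0.44 ± 0.11 on the log2 scale between the higher and lower dose (adjusted p = 0.000798), where 3.84% of all genes had a lower fold change; at the lower dose its value was -0.04 ± 0.10 (adjusted p = 0.793). KLF13, known for switching on the chemokine gene CCL5 in T lymphocytes, had 37.7 and 36.9 CPM in the untreated libraries, 34.5 and 36.3 CPM at the lower dose and 26.9 and 28.0 CPM at the higher dose. The 3 groups did not overlap, yet the step to the lower dose did not pass the test (-0.08 ± 0.05, adjusted p = 0.269). KLF13 fell by 26.3% at the higher dose (-0.44 ± 0.05, adjusted p = 3.86e-10), or by 0.28 on the log2 scale after the length and GC correction (adjusted p = 4.37e-06), and by 22.3% between the higher and lower dose (-0.36 ± 0.05, adjusted p = 1.99e-07).

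KLF16, described in mouse as a regulator of dopamine receptor genes, had 72.5 and 70.6 CPM in the untreated libraries, 70.6 and 70.0 CPM at the lower dose and 84.6 and 78.7 CPM at the higher dose. The higher dose libraries were the highest of the 6. KLF16 rose by 14.2% against untreated cells (0.19 ± 0.04, edgeR adjusted p = 3.19e-05) and by 16.1% against the lower dose (0.22 ± 0.04, adjusted p = 1.06e-05). KLF10 and KLF11 were first described as early genes of the TGF-beta response. KLF10 had 32.6 and 32.1 CPM in the untreated libraries, 29.7 and 28.5 CPM at the lower dose and 30.1 and 32.3 CPM at the higher dose, so it was lowest at the lower dose, and the higher dose libraries overlapped the untreated ones. It fell by 9.92% at the lower dose (-0.15 ± 0.05, adjusted p = 0.0285). That call ended with DESeq2 (-0.15, adjusted p = 0.178), and when untreated library a (-0.14, adjusted p = 0.106), untreated library b (-0.16, adjusted p = 0.0548) or lower dose library b (-0.12, adjusted p = 0.193) was left out. At the higher dose KLF10 was -0.05 ± 0.05 (adjusted p = 0.433). KLF11 had 19.17 and 20.87 CPM in the untreated libraries, 19.81 and 19.47 CPM at the lower dose and 20.96 and 20.01 CPM at the higher dose. All of its groups but the treated pair overlapped, and its fold changes were 0.03 ± 0.07 at the higher dose (adjusted p = 0.731, 95% interval -0.10 to 0.16) and -0.03 ± 0.07 at the lower dose (adjusted p = 0.765, interval -0.16 to 0.10). KLF11 and KLF16 each share exon bases (416 and 483) with an antisense gene in GENCODE v29 that is not among the counted genes, and without strand in the counting such reads cannot be told apart.

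Between the higher and the lower dose, 2 members rose (KLF4, KLF16) and 4 fell (KLF2, KLF6, KLF9, KLF13), where 34.0% of all genes were called, 16.4% up and 17.6% down. None of the 6 reached 1.5-fold between the doses, as 1.33% of all genes did. The libraries did not overlap for 9 of the 10 members, against 64.8% of all genes. The median absolute log2 fold change of the members was 0.18 between the doses, 0.27 for the higher dose against untreated and 0.09 for the lower dose against untreated; over all genes it was 0.12, 0.21 and 0.12. KLF2 and KLF4 changed at both steps, whereas KLF6, KLF9, KLF13 and KLF16 passed the test in the comparisons with the higher dose and had values of -0.08 to -0.02 on the log2 scale for the lower dose against untreated cells.

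**Figure D4:**
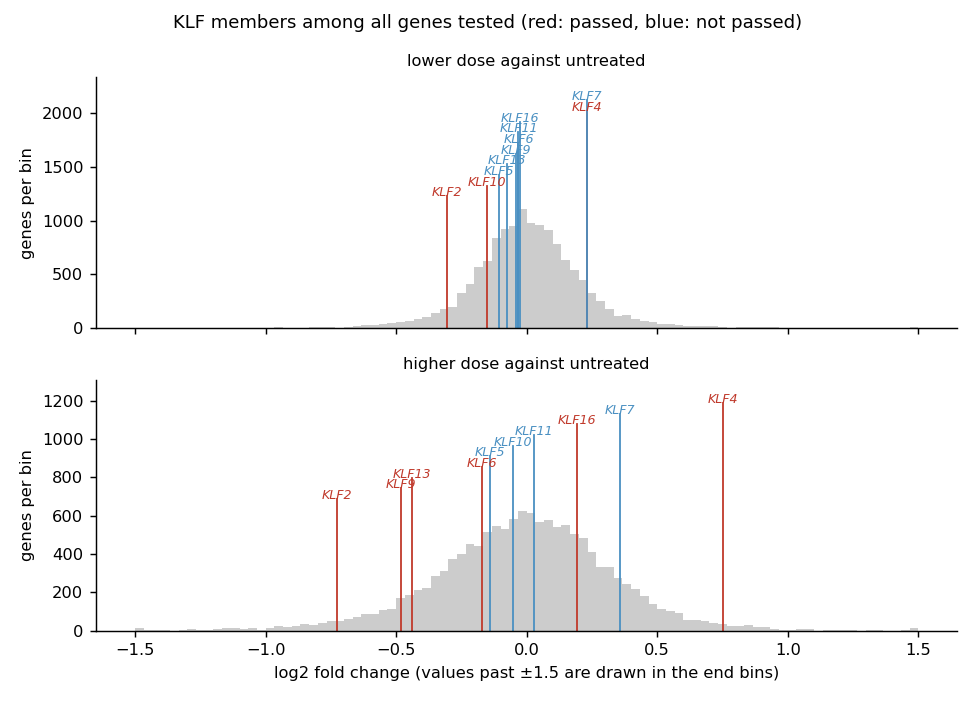
Histogram of the log2 fold changes of the 13548 genes tested, with the 10 KLF genes as vertical lines (red, passed; blue, not passed), for the lower dose (top) and the higher dose (bottom) against untreated cells. At the higher dose KLF2 and KLF4 lie in the tails, with 2.65% and 98.4% of all genes at lower values.

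The other KLF genes and their SP relatives, which bind the same GC boxes, were read beside the members; counts of this and the following lists stand beside 28.2% of all genes called down and 28.1% called up at the higher dose. Of the 7 other KLF genes, KLF1 and KLF14 did not exceed 2 reads and 5 were tested; at the higher dose 2 fell, 0 rose and 3 did not pass. KLF3, a repressor that works through CTBP proteins, had 27.7 and 27.3 CPM in the untreated libraries, 25.3 and 23.5 CPM at the lower dose and 20.9 and 20.1 CPM at the higher dose, in non-overlapping steps. It fell by 25.4% at the higher dose (-0.42 ± 0.06, edgeR adjusted p = 3.46e-08) and by 0.17 ± 0.06 on the log2 scale at the lower dose (adjusted p = 0.019), a call that ended with DESeq2 (adjusted p = 0.16), without untreated library a (-0.16, adjusted p = 0.0768) and without lower dose library b (-0.12, adjusted p = 0.237). KLF15, a metabolic regulator of liver and muscle, was low, at 3.72 and 3.16 CPM at the higher dose against 4.07 and 4.78 CPM in untreated cells, and fell (-0.37 ± 0.14, adjusted p = 0.0233); the call ended with DESeq2 (adjusted p = 0.175), without untreated library b (-0.24, adjusted p = 0.269) and without higher dose library b (-0.26, adjusted p = 0.23). KLF12 rose at the lower dose (0.23 ± 0.07, adjusted p = 0.00442; 0.15, adjusted p = 0.164 without untreated library b, and adjusted p = 0.0917 with DESeq2) and was 0.01 ± 0.07 at the higher dose (adjusted p = 0.948). KLF8 and KLF17 stayed under 1 CPM and did not pass.

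Of the 9 SP genes, SP7, SP8 and SP9 had 0 reads and 6 were tested; at the higher dose 1 rose, 2 fell and 3 did not pass. SP1, the general activator at GC boxes, had 59.4 and 51.9 CPM in the untreated libraries, 47.4 and 46.4 CPM at the lower dose and 42.7 and 40.2 CPM at the higher dose. It fell at the higher dose (-0.42 ± 0.05, edgeR adjusted p = 1.97e-10) and at the lower dose (-0.24 ± 0.05, adjusted p = 6.84e-05; -0.15, adjusted p = 0.0314 without untreated library a). SP3, which competes with SP1 for the same sites, rose at the higher dose to 66.3 and 64.5 CPM, against 57.2 and 58.4 CPM in untreated cells (0.18 ± 0.04, adjusted p = 0.000167), and was 0.09 ± 0.04 at the lower dose (adjusted p = 0.0946). SP2 fell at the higher dose (-0.20 ± 0.05, adjusted p = 0.00134), though it was -0.12 (adjusted p = 0.0384) after the length and GC correction and ranged over -0.09 (adjusted p = 0.198) without untreated library a and -0.31 (adjusted p = 3.03e-06) without untreated library b. SP4 (0.24 ± 0.12, adjusted p = 0.0764), SP5 (-0.16 ± 0.15, adjusted p = 0.373) and SP6 (-0.02 ± 0.21, adjusted p = 0.955) did not pass.

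Genes that act on the KLF proteins were counted next. Of 10 corepressors and coactivators, 4 rose, 4 fell and 2 did not pass at the higher dose (median 0.05), where 56.3% of all genes were called. SIN3B fell (-0.38 ± 0.03, edgeR adjusted p = 7.68e-14), as did SIN3A (-0.29 ± 0.05, adjusted p = 5.2e-07), the partners of the KLF9 group; the length and GC correction took them to -0.24 and -0.17. The acetyltransferase gene KAT2B (-0.35 ± 0.05) and the deacetylase gene HDAC1 (-0.22 ± 0.03) fell too. The 4 genes of the list that rose were CTBP1 (0.21 ± 0.03), HDAC2 (0.13 ± 0.03), EP300 (0.12 ± 0.05) and CTBP2 (0.11 ± 0.04). Their changes were smaller than those of the fallers before that correction. It took EP300 to 0.28, CTBP2 to 0.21 and HDAC2 to 0.20, so that order did not hold after it. The EP300 call ended with DESeq2 (adjusted p = 0.189) and, in edgeR, with upper quartile scaling (adjusted p = 0.103). Of 9 ubiquitin ligase and deubiquitinase genes described for KLF proteins, 4 rose, 1 fell and 4 did not pass (median 0.13). FBXW7, a ubiquitin ligase subunit described to mark KLF2 and KLF5 for degradation, had 7.80 and 9.13 CPM in the untreated libraries, 10.4 and 10.8 CPM at the lower dose and 14.4 and 12.7 CPM at the higher dose, and rose 1.59-fold at the higher dose (0.67 ± 0.09, adjusted p = 6.82e-09). USP10 (0.35 ± 0.04) and SMURF2 (0.19 ± 0.03) also rose there, and BTRC fell (-0.35 ± 0.06).

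Of the 12 regulators upstream of KLF2 and KLF4, 8 fell, 1 rose and 3 did not pass at the higher dose, with a median log2 fold change of -0.23 beside -0.00083 over all genes, of which 28.2% fell and 28.1% rose. At the lower dose 2 fell, 0 rose and 10 did not pass (median -0.07), where 15.9% of all genes fell and 16.7% rose. MAPK7, the gene of ERK5, was the riser, at 33.9 and 37.0 CPM at the higher dose against 30.3 and 28.3 CPM in untreated cells (0.28 ± 0.06, edgeR adjusted p = 2.72e-05). MEF2D fell to 55.6 and 54.3 CPM at the higher dose, against 73.2 and 75.1 CPM in untreated cells (-0.43 ± 0.04, adjusted p = 7.15e-14), or by 0.28 on the log2 scale after the length and GC correction. FOXO1 (-0.75 ± 0.15, adjusted p = 2.21e-05) and FOXO4 (-0.70 ± 0.08, adjusted p = 4.51e-11), forkhead factors of which FOXO1 drives KLF2 in lymphocytes, fell as well. FOXO1 was scarce, at 3.12 and 2.39 CPM against 4.83 and 4.48 CPM in untreated cells. FOXO3, of the same list, had 25.4 and 24.7 CPM at the higher dose against 24.5 and 24.0 CPM in untreated cells. It did not pass (0.05 ± 0.06, edgeR adjusted p = 0.517). HDAC5, a repressor of MEF2 activity, fell by 28.1% (-0.48 ± 0.05, adjusted p = 2.78e-13). MEF2C (-0.39 ± 0.08, edgeR adjusted p = 2.51e-05) and MAP3K3 (-0.33 ± 0.04, edgeR adjusted p = 2.75e-10) also fell. The length and GC correction took MAP3K3 to -0.20. The falls of HDAC7 (-0.11 ± 0.04) and MEF2A (-0.13 ± 0.05) were less firm. Their calls ended with DESeq2 (adjusted p = 0.131 and 0.201). They also ended in edgeR with the length and GC correction (0.0002, adjusted p = 0.998, and -0.06, adjusted p = 0.389). The list holds activators and repressors, so its median has no direction of its own.

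Of 29 genes described elsewhere as targets of KLF factors, 24 were tested; 13 fell, 5 rose and 6 did not pass at the higher dose (median -0.19), where 28.2% of all genes fell and 28.1% rose. At the lower dose 11 fell, 4 rose and 9 did not pass (median -0.09), where 15.9% of all genes fell and 16.7% rose. PTGES, a prostaglandin synthase gene, had 219 and 223 CPM at the higher dose and 430 and 417 CPM in untreated cells (-0.94 ± 0.03, edgeR adjusted p = 5.66e-33). PLAU, the urokinase gene, fell by 43.8% (-0.83 ± 0.03), EDN1, the endothelin gene that KLF2 lowers in endothelial cells, by 36.0% (-0.64 ± 0.07), and IGF1R, the receptor gene of the added IGF1, by 37.2% (-0.67 ± 0.06). The list holds genes that KLF factors raise and genes that they lower, so its median has no direction of its own.

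**Figure D5:**
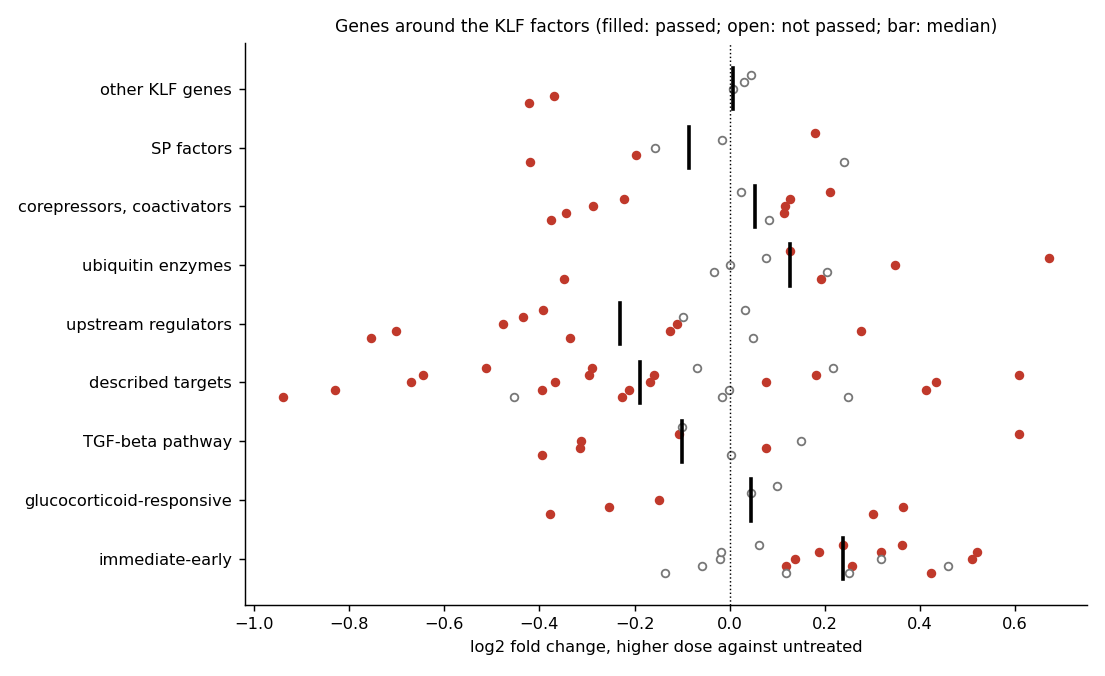
Log2 fold change at the higher dose against untreated cells for the tested genes of 9 lists around the KLF factors (filled, passed; open, not passed; black bar, median of the list). The upstream regulators sit mostly below 0, with a median of -0.23, and the immediate-early genes mostly above it, with a median of 0.24.

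Lists for signals that KLF genes answer to were read the same way. Of 9 genes of the TGF-beta pathway, 2 rose, 4 fell and 3 did not pass at the higher dose (median -0.10, and 0.02 after the length and GC correction). SMAD7, the inhibitory SMAD gene that KLF10 and KLF11 act on, rose (0.61 ± 0.12, edgeR adjusted p = 9.89e-06), and TGFBR1 (-0.39 ± 0.04), SMAD2 (-0.31 ± 0.04; -0.20 after the length and GC correction) and TGFBR2 (-0.31 ± 0.03) fell. Of 7 glucocorticoid-responsive genes tested, 2 rose and 3 fell: FKBP5 (0.36 ± 0.04) and ERRFI1 (0.30 ± 0.03) rose, and DUSP1 (-0.38 ± 0.05), NR3C1, the receptor gene itself (-0.25 ± 0.03), and SGK1 (-0.15 ± 0.06) fell. The SGK1 call ended with DESeq2 (adjusted p = 0.139), with the length and GC correction (-0.12, adjusted p = 0.0634), without untreated library a (-0.11, adjusted p = 0.184) and without higher dose library a (-0.10, adjusted p = 0.226). Of 19 immediate-early genes, 10 rose, 0 fell and 9 did not pass (median 0.24), where 28.1% of all genes rose and 28.2% fell, with ATF3 at 0.52 ± 0.10, JUN at 0.51 ± 0.04, FOS at 0.42 ± 0.12 and EGR1 at 0.36 ± 0.06; the FOS call ended with DESeq2 (adjusted p = 0.0668) and without untreated library b (0.29, adjusted p = 0.101). Immediate-early genes are those whose transcripts appear first after a stimulus, and the cells were taken at 6 h.

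The genes nearest in pattern to KLF2 and KLF4 were found by Euclidean distance between log2 CPM profiles, each centred on its own mean, over the 6 libraries and among 10435 genes with a mean of at least 5 CPM. For KLF2 they were AASS (distance 0.0569), an enzyme of lysine breakdown, SERINC1 (0.0736), HMGB3 (0.0815), a chromatin protein, MAGED1 (0.0862) and APP (0.0873), the amyloid precursor protein. AASS had log2 fold changes of -0.68 ± 0.06 at the higher dose and -0.26 ± 0.05 at the lower dose. For KLF4 they were GPATCH4 (0.0741), SDF2L1 (0.0898), a protein of the endoplasmic reticulum, SNHG7 (0.107), a noncoding host gene of small nucleolar RNAs, POLR3G (0.120), a subunit of RNA polymerase III, and AFAP1-AS1 (0.128), an antisense transcript whose reads are uncertain without strand. GPATCH4 had 0.75 ± 0.04 at the higher dose and 0.24 ± 0.04 at the lower dose. These profiles are described only as alike over the 6 libraries.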

How the data were processed

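Each of the 6 libraries of human MDA-MB-231 cells came with a deposited table of raw counts by gene symbol, made by the authors with HTSeq; per the submitters' processing notes, CASAVA 1.8.1, TopHat 1.4.0 and hg19 were also used. The annotation, counting mode and strand use were not given in the sources used here. HTSeq's 5 summary lines, 9.40% to 10.2% of the reads, were left out, and each library held 26255079 to 30280322 reads on genes. The counts of all 6 libraries entered a robust quasi-likelihood fit in edgeR 4.0.16 (R 4.3.3) with 3 group means, TMM factors (0.997 to 1.003) and filterByExpr, leaving 3 residual degrees of freedom. Tests were two-sided with Benjamini-Hochberg adjustment over all 13548 genes tested and a threshold of 0.05. A standard error is the size of the log2 fold change divided by the square root of F. TMM scaling assumes that most genes are stable, so each change is relative to the bulk of genes. Replicates differed by more than counting noise (chi-square of 1.52 to 1.98 per degree of freedom). The p-values measure the spread between these libraries, which may be partly technical. In the quasi-likelihood fit the spread of each gene was drawn toward a trend over all genes. The small p-values therefore rest largely on spread borrowed from other genes, not on the 3 residual degrees of freedom alone. Intervals used the normal multiple of the standard error and were not widened for the few libraries. The fit was tested on simulated counts.

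RPKM used transcript lengths from GENCODE v29, found with GC content for 88.3% of the genes tested, and promoter windows came from RefSeq (GRCh38.p14). The 10 members and the gene lists, compiled from general knowledge, were chosen with earlier results of these data known, and no list was tested as a set. Named were all members, every other tested KLF or SP gene and the 5 nearest patterns of KLF2 and KLF4. Of each other list, at most 4 called genes with the largest absolute change at the higher dose were named. SGK1, MAPK7 (the single riser of its list), HDAC7, MEF2A, MEF2C, MAP3K3, FOXO3 and genes at the marker check were named beside them. So were CTBP1, HDAC2, EP300 and CTBP2, the risers of the corepressor and coactivator list. All of these but the marker genes were added after their values were seen. Alternatives were other scaling factors, DESeq2 1.42.0, no filter, fits on 4 libraries, a replicate block, a length and GC correction, a prior count of 0.5 in place of 2 for the KLF4 to KLF2 ratio in CPM (the ratio in RPKM has no prior count), and leaving out each library.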

Additional observations from a re-analysis of the deposited data

How the results depend on the processing

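Over 14 alternatives, 3 comparisons and 10 members, 405 of 418 fold changes kept their direction and their side of the threshold, among them each value of KLF2 and KLF4 in all 3 comparisons; DESeq2 gave no adjusted p for another 2. Values that changed sign were small and had not passed the test: with the length and GC correction KLF13 was 0.0240 and KLF16 0.0398 for the lower dose against untreated, KLF11 ranged over -0.0304 to 0.0939 for the higher dose and over -0.0908 to 0.0325 for the lower dose against untreated when libraries were left out, and KLF9 over -0.0927 to 0.0127 for the lower dose. KLF10 passed between the doses with the length and GC correction (0.13, adjusted p = 0.0471). The count of members called stayed within 1.5 times its value in each alternative. DESeq2 called 2562 genes for the lower dose against untreated and 2758 for the higher against the lower dose, where edgeR called 4418 and 4612; the cause was not tested. Differences between libraries a and b were hardly correlated between groups (correlations of -0.04, 0.00 and -0.03). The letters do not show whether same-lettered libraries share a culture or day. A replicate block gave 4320, 7561 and 4516 called genes and the same 3, 6 and 6 called members in number. With the length and GC correction the higher dose gave 7 falls and 2 rises among the upstream regulators, 11 and 6 among the described targets, and 1 and 9 among the immediate-early genes. A prior count of 0.5 in place of 2 moved no log2 CPM ratio of KLF4 to KLF2, a ratio without division by length, by more than the spread between replicates. KLF7 rested on 44 to 64 reads per library and had the widest errors of the 10 members.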
